A study of Mus musculus with 60 samples.

Results

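The genes described here are the neighbours of Adgrl3 on mouse chromosome 5. They were chosen by position, less some genes left out by name. Every gene of the deposited count table that starts from 70 to below 100 Mb of chromosome 5 (GRCm38) was taken. Adgrl3 itself and 12 further genes were then left out: Stbd1, Cox18, Naaa, Scarb2, Clock, Pdgfra, Epha5, Gabra2, Gabra4, Gabrb1, Gabrg1 and Cox7b2. This choice gave 192 members of 21950 genes in the table, where 1260 genes lie on chromosome 5. Counts and shares of members below thus do not cover every gene of the stretch. The first member starts at 72156575 and the last at 99979061, with 103 on the plus strand and 89 on the minus strand. Adgrl3 lies between them at chr5:81020138-81825133, plus strand.

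RNA was sequenced from hippocampus, prefrontal cortex and striatum of mice homozygous for an altered Adgrl3 gene (genotype Adgrl3 -/-, here KO) and of wild-type mice (Adgrl3 +/+, here WT). Each genotype had 10 libraries in each of the 3 regions, 60 in all. The labels name 12 mice of each genotype, aged 65 to 76 days after birth, whose regions were dissected from frozen brains. The series design asks how the genotypes differ in each region and across the regions together. No source used here gives the strain, sex, litter or altered part of Adgrl3, nor is it said which mouse gave which library. P-values therefore measure the spread between these libraries.

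Adgrl3 encodes latrophilin-3, which sits at synapses and belongs to the adhesion class of G protein-coupled receptors. Genes that lie close together on a chromosome tend to be inherited together, so the neighbours of an altered gene travel with it through crosses. The stretch around Adgrl3 holds genes of unrelated function: receptor kinases such as Kit, genes of RNA processing and of mitochondria, clusters of chemokines, caseins, albumins and glucuronosyltransferases that are active mainly outside the brain, and matrix and cytoskeleton genes.

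Libraries held between 38985577 and 51387833 counted reads. Levels are given in CPM (counted reads of a gene per 1000000 counted reads of the library, after TMM scaling). Adgrl3 was lower in every KO library than in every WT library of its region, with mean levels of 34.9, 35.3 and 41.8 CPM in KO against 125, 149 and 163 CPM in WT for hippocampus, prefrontal cortex and striatum. Hippocampal, striatal and cortical markers had their highest summed level in the region they are named for, in both genotypes. Summed erythrocyte markers were lower in KO, with medians of 257 against 400 CPM in hippocampus, 412 against 676 in prefrontal cortex and 295 against 321 in striatum, and 0 of 5 passed in each region, with 5, 5 and 4 at an unadjusted p under 0.05. In prefrontal cortex the 6 olfactory bulb markers summed to a median of 53.9 CPM in WT (7.45 to 107) and 8.5 CPM in KO (5.94 to 56.0), and 1 of 6 passed, with 6 of 6 lower in KO at an unadjusted p under 0.05. In the same region the 6 oligodendrocyte markers summed to a median of 1500 CPM in WT (1200 to 1590) and 1640 CPM in KO (1340 to 2340), and 0 of 6 passed, with 6 of 6 higher in KO and 5 at an unadjusted p under 0.05. Their medians were 3230 CPM in WT and 2550 in KO in hippocampus, with 0 of 6 higher in KO. In striatum they were 7120 and 7890 CPM, with 6 of 6 higher in KO. In both of these regions 0 of 6 were at an unadjusted p under 0.05. In hippocampus the 6 choroid plexus markers summed to 1490 CPM in WT (53.1 to 2660) and 418 CPM in KO (38.4 to 3040), and 0 of 6 passed, with 0 at an unadjusted p under 0.05. Of these tissues only the olfactory bulb was put in a fit, as a score of its markers. That score itself differed between the genotypes in prefrontal cortex, with a mean of 1.04 in KO and 2.65 in WT. The part of the other tissues in the results was not tested. The library labelled WT replicate 5 stood at the KO level for several members in all 3 regions, as described below, and values are given with and without it where they rest on it. It was picked out by its values in these same members, so the values without it are a description and no separate support.

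Of the 192 members, 78 passed the filter on low counts in all 3 regions, 14 in 1 or 2 regions and 100 in none. Summing the counts of equally numbered libraries of a genotype over the regions (20 sums) let 99 members be tested. The 93 members tested nowhere had at most 0.133 CPM on average over the 30 WT libraries. The longest run of them in order of start is 33 members, which start from 86889767 to 88487975. The nearest tested members before Adgrl3 are Polr2b, which encodes a subunit of RNA polymerase II, and Igfbp7, which encodes a secreted binding protein of growth factors, which end 3.67 and 3.61 Mb before the start of Adgrl3. After Adgrl3 come Tecrl, testable in the sums only at 0.150 CPM in WT, at 1.45 Mb, and Cenpc1, which encodes a centromere protein, at 4.19 Mb.

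In the hippocampus 8 of 86 tested members passed the test between KO and WT (edgeR quasi-likelihood, Benjamini-Hochberg 0.05 over all tested genes), against 0.128% of all tested genes. Ociad1, Mthfd2l and Cdkl2 rose in KO (3 members, where 0.0578% of all tested genes rose). Srd5a3, Adamts3, Sdad1, Anxa3 and Paqr3 fell (5 members, where 0.0706% of all fell). In prefrontal cortex 4 of 81 passed, against 0.117% of all: Cdkl2 and Prdm8 rose (0.065% of all rose), Sdad1 and Fras1 fell (0.052% of all fell). In striatum 2 of 88 passed, against 0.0514% of all: Sdad1 and Shroom3, which both fell (0.0321% of all fell and 0.0193% rose). In the sums 10 of 99 passed, against 0.162% of all: Ociad1, Mthfd2l, Cdkl2 and Ccng2 rose (0.066% of all rose), and Srd5a3, Adamts3, Sdad1, Shroom3, Mrpl1 and Paqr3 fell (0.0959% of all fell). In all, 13 members passed in at least 1 of these 4 comparisons, and 1, Sdad1, passed in every region. Of all the genes that passed, 20, 18, 8 and 27 in these comparisons, 2, 4, 0 and 4 lay on other chromosomes. The regions and the sums share the same mice or libraries, so the 4 counts are not separate evidence.

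**Figure D1:**
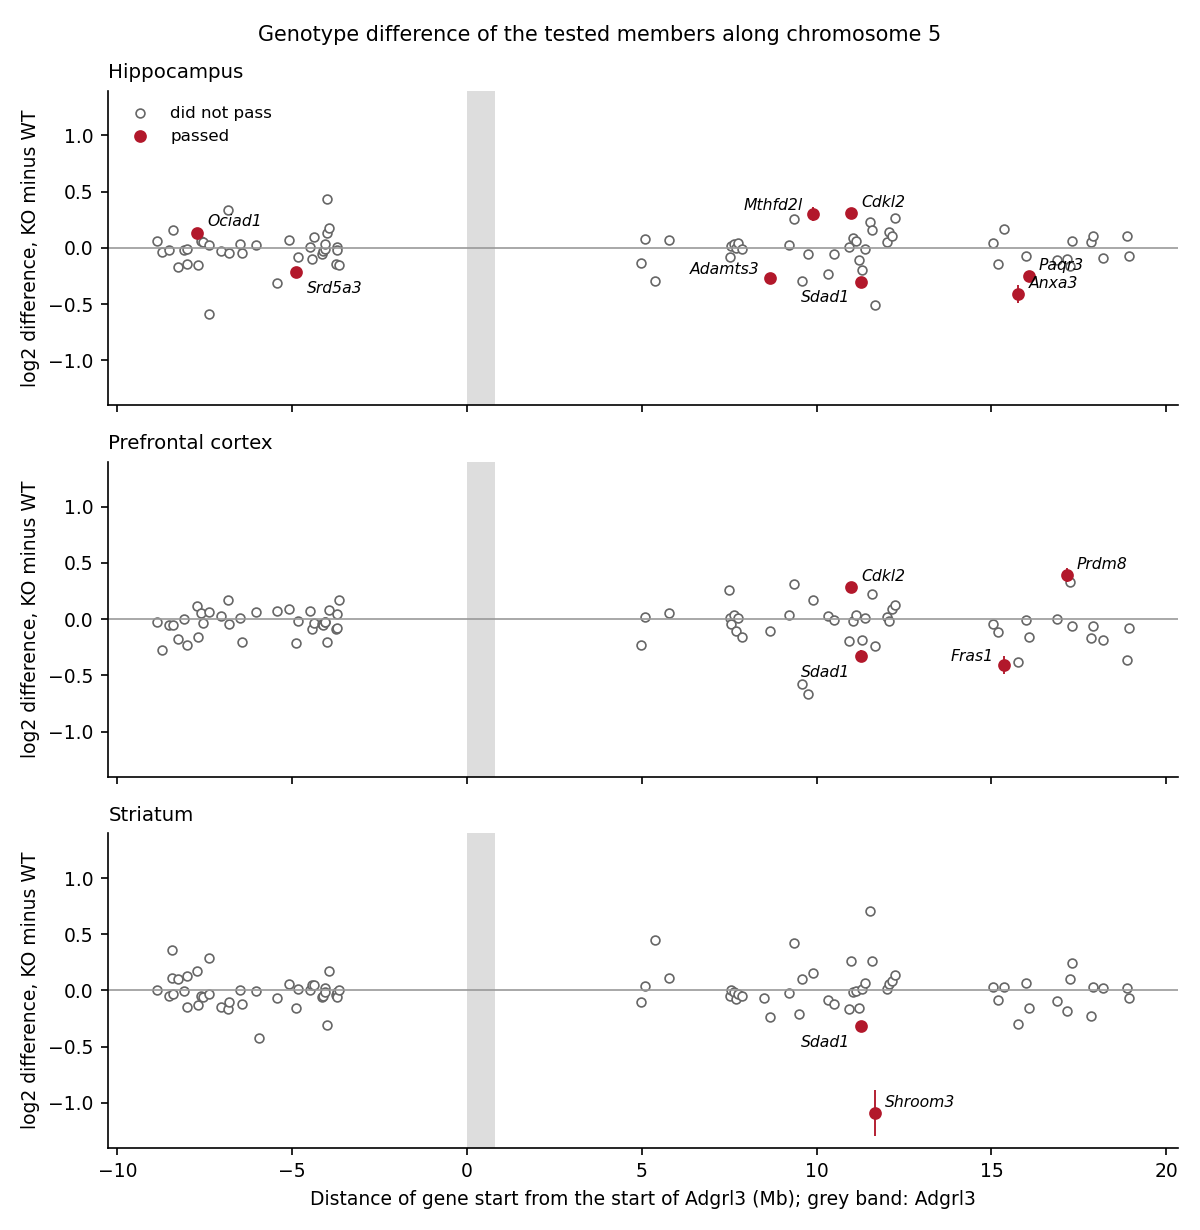
Difference between KO and WT (log2 scale, KO minus WT) of each tested member against the distance of its start from the start of Adgrl3 in Mb, in hippocampus, prefrontal cortex and striatum. Filled points passed the test, with bars for the SE, and open points did not. The 8 and 4 members that passed in hippocampus and prefrontal cortex lie on both sides of a difference of 0. The 2 that passed in striatum lie below it, with Shroom3 the lowest at -1.09.

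Members that passed stood on both sides of Adgrl3, from Ociad1 at 7.71 Mb before it to Prdm8 at 16.34 Mb after it. Before Adgrl3 the counts were 2 of 38 in hippocampus, 0 of 35 in prefrontal cortex (9 at an unadjusted p under 0.05), 0 of 39 in striatum (6 at an unadjusted p under 0.05) and 2 of 42 in the sums. After it they were 6 of 48, 4 of 46, 2 of 49 and 8 of 57. Differences were small in size. The median absolute log2 difference of the tested members was 0.09, 0.08 and 0.07 in hippocampus, prefrontal cortex and striatum, where over all tested genes it was 0.04, 0.05 and 0.05. The median signed difference was -0.01, -0.03 and -0.01, and 41 of 86, 34 of 81 and 39 of 88 members were above 0. Members that start from 90 to below 95 Mb had the highest median absolute difference of the 5 Mb steps in hippocampus (0.15, 22 genes), striatum (0.13, 22 genes) and the sums (0.18, 27 genes), apart from a step with Tecrl alone. In prefrontal cortex that step had 0.15 (20 genes) and the step from 95 to below 100 Mb had 0.16 (15 genes). Members at an unadjusted p under 0.05 numbered 24 of 86 in hippocampus (27.9%), 28 of 81 in prefrontal cortex (34.6%), 21 of 88 in striatum (23.9%) and 29 of 99 in the sums (29.3%), against 8.14%, 11.8%, 7.14% and 10.5% of all tested genes. Across members, the absolute difference had a Spearman correlation of 0.213, 0.199 and 0.208 with the distance from Adgrl3 in the 3 regions and 0.092 in the sums. With the WT level it was -0.321, -0.371, -0.404 and -0.425. Members share libraries and neighbours, so these are descriptions.

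Among the genes of mitochondria and of nucleotide or folate metabolism, 2 of 8 tested members rose and 0 fell in hippocampus, and 2 rose and 1 fell in the sums. In prefrontal cortex and striatum 0 of 8 passed. The list's median difference was -0.02 in hippocampus and -0.03 in the sums, where over all tested genes it was 0.00 in each. Ociad1 (ENSMUSG00000029152.13, chr5:73292784-73314069, plus strand) encodes a protein of endosomes and mitochondria and had the second highest WT level per kb of gene span among members, 13.6 CPM per kb. Cdkl2 (ENSMUSG00000029403.14, chr5:92006074-92043883, minus strand), of the kinase list, encodes a cyclin-dependent kinase-like enzyme. The 250 bases before the RefSeq start of both genes (GRCm38.p6) are shown as the upstream stretches of 2 of the 3 members that rose in the sums with no overlap between the genotypes. That of the third, Mthfd2l, is not shown. They cover chr5:73292544-73292793, plus strand, and chr5:92043043-92043292, minus strand. Capitals mark a GC box (GGGCGG) or a CCAAT box (CCAAT), searched on both strands, as was the TATA box (TATAAA).
Ociad1: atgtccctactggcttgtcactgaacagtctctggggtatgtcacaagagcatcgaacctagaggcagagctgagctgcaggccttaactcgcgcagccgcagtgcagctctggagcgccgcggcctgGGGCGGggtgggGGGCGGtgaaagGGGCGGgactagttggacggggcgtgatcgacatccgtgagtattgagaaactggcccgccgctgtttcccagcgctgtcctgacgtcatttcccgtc
Cdkl2: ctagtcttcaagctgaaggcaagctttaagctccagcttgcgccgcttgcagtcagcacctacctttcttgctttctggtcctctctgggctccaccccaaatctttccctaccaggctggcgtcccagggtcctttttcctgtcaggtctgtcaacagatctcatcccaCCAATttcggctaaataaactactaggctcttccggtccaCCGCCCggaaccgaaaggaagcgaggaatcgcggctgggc
The Ociad1 stretch held 3 GC boxes and the Cdkl2 stretch 1 GC box and 1 CCAAT box, and neither held the TATA box letters. Of 32851 RefSeq promoters of this length, 32.7% held the GC box, 33.8% the CCAAT box and 12.4% the TATA box. Of the 161 promoters of members (136 of 192 members have an entry), 42.9%, 38.5% and 14.9% did. The RefSeq start of Cdkl2 lies 841 bases inside the gene span of the count table and that of Ociad1 10 bases inside.

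Ociad1 ran from 282.6 to 313.6 CPM (median 291.2) in WT hippocampus and from 299.8 to 353.0 (322.8) in KO. In prefrontal cortex it ran from 281.7 to 314.5 (300.2) in WT and from 315.7 to 342.3 (326.8) in KO, and in striatum from 251.1 to 300.8 (275.0) and from 289.8 to 331.3 (316.8). Every KO library of prefrontal cortex was above every WT library, while in the other regions 7 and 8 of 10 were. The log2 difference was 0.14 ± 0.03 (SE) in hippocampus (edgeR adjusted p = 0.0385, not passing in 14 of the 20 fits without 1 library), 0.11 ± 0.03 in prefrontal cortex (0.0892) and 0.17 ± 0.04 in striatum (0.0833), and the last pair did not pass. With DESeq2 and with all 60 libraries fitted together, Ociad1 passed in prefrontal cortex and striatum too. In the sums Ociad1 rose by 0.14 ± 0.02 (edgeR adjusted p = 0.00168), with no overlap between the genotypes. Mthfd2l, at chr5:90931117-91021368, plus strand, encodes a mitochondrial enzyme of folate metabolism. It ran from 4.62 to 5.81 CPM (median 5.50) in WT hippocampus and from 5.92 to 7.96 (6.47) in KO, which do not overlap. There it rose by 0.30 ± 0.06 (edgeR adjusted p = 0.044, not passing in 17 of the 20 fits that left out 1 library), and in the sums by 0.21 ± 0.04 (edgeR adjusted p = 0.00967), again without overlap. Its difference was 0.17 ± 0.08 in prefrontal cortex and 0.16 ± 0.06 in striatum, where it did not pass. Mrpl1, which encodes a protein of the mitochondrial ribosome (chr5:96209493-96266727, plus strand), passed in the sums only, with 13.4 to 14.2 CPM in KO (median 13.9) and 13.9 to 15.8 CPM in WT (15.2). It fell by 0.12 (SE 0.03, edgeR adjusted p = 0.0497), and in 17 of the 20 fits that left out 1 genotype and number it did not pass. Paics, an enzyme gene of purine synthesis, was at 79.5 CPM in WT sums and 79.3 in KO and did not pass.

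Of 7 kinase genes tested in each region, Cdkl2 alone passed in hippocampus and in prefrontal cortex, and 0 passed in striatum (median difference of the list 0.06). In WT hippocampus Cdkl2 ran from 36.7 to 43.4 CPM (median 38.7) and in KO from 43.9 to 57.1 (48.3), with no overlap. In prefrontal cortex it ran from 31.2 to 41.8 (36.2) in WT and from 37.9 to 47.5 (44.6) in KO, and in striatum from 30.9 to 40.8 (36.6) and from 37.7 to 50.8 (42.2). WT replicate 5 was the highest WT library in each region, with 43.4, 41.8 and 40.8 CPM. The log2 difference was 0.31 ± 0.04 (SE) in hippocampus (edgeR adjusted p = 0.00115), 0.28 ± 0.04 in prefrontal cortex (0.00468) and 0.26 ± 0.05 in striatum (0.0833), where it did not pass. Without WT replicate 5 Cdkl2 rose by 0.33 ± 0.04 in hippocampus and 0.31 ± 0.04 in prefrontal cortex, and it passed in striatum as well. With DESeq2 and with all 60 libraries fitted together, Cdkl2 passed in striatum too. With the olfactory bulb score (mean level of 4 marker genes of that tissue) in the fit the prefrontal cortex difference was 0.28 ± 0.06 and did not pass (edgeR adjusted p = 0.172).

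Kit, the receptor tyrosine kinase gene at chr5:75574916-75656722, plus strand, ran from 81.7 to 115 CPM (median 106) in WT hippocampus and from 75.4 to 101 (83.3) in KO. Of the KO libraries, 4 lay below the lowest WT library, and the groups overlap. Its difference was -0.31 ± 0.06 (SE) in hippocampus (edgeR adjusted p = 0.0563), 0.07 ± 0.04 in prefrontal cortex and -0.07 ± 0.05 in striatum, and it passed in no region. It did pass in hippocampus with DESeq2 (adjusted p = 0.00127), with all 60 libraries fitted together, with voom and with a filter at 1 CPM.

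Of 11 genes of RNA processing, ribosome making and the nuclear pore, 1 passed in each region and in the sums, and the others did not. That gene, Sdad1 (ENSMUSG00000029415.4, chr5:92284010-92310479, minus strand), encodes a nucleolar protein of ribosome export. In WT it ran from 16.5 to 21.9 CPM (median 19.3) in hippocampus, from 13.5 to 18.2 (17.3) in prefrontal cortex and from 13.5 to 19.6 (16.8) in striatum. In KO it ran from 14.4 to 16.9 (15.97), from 12.61 to 14.98 (13.4) and from 12.9 to 14.1 (13.4). The lowest WT library was replicate 5 in each region, at 16.5, 13.5 and 13.5 CPM, inside the KO range. The other 9 WT libraries lay above every KO library, from 18.3, 15.99 and 15.9 CPM upward. Sdad1 fell by 0.30 (SE 0.04, edgeR adjusted p = 0.00287), by 0.33 (0.05, 0.00324) and by 0.32 (0.05, 0.00249) in hippocampus, prefrontal cortex and striatum. Without WT replicate 5 it fell by 0.32, 0.36 and 0.34. In the sums it fell by 0.31 (SE 0.04, edgeR adjusted p = 0.000166). Hnrnpd, an RNA-binding protein gene, differed by -0.07, -0.08 and -0.07 in the 3 regions. G3bp2, a stress granule gene, differed by 0.08, -0.02 and -0.01, and Grsf1, whose product binds mitochondrial RNA, by 0.03, 0.04 and -0.01. These 3 did not pass in any region.

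**Figure D2:**
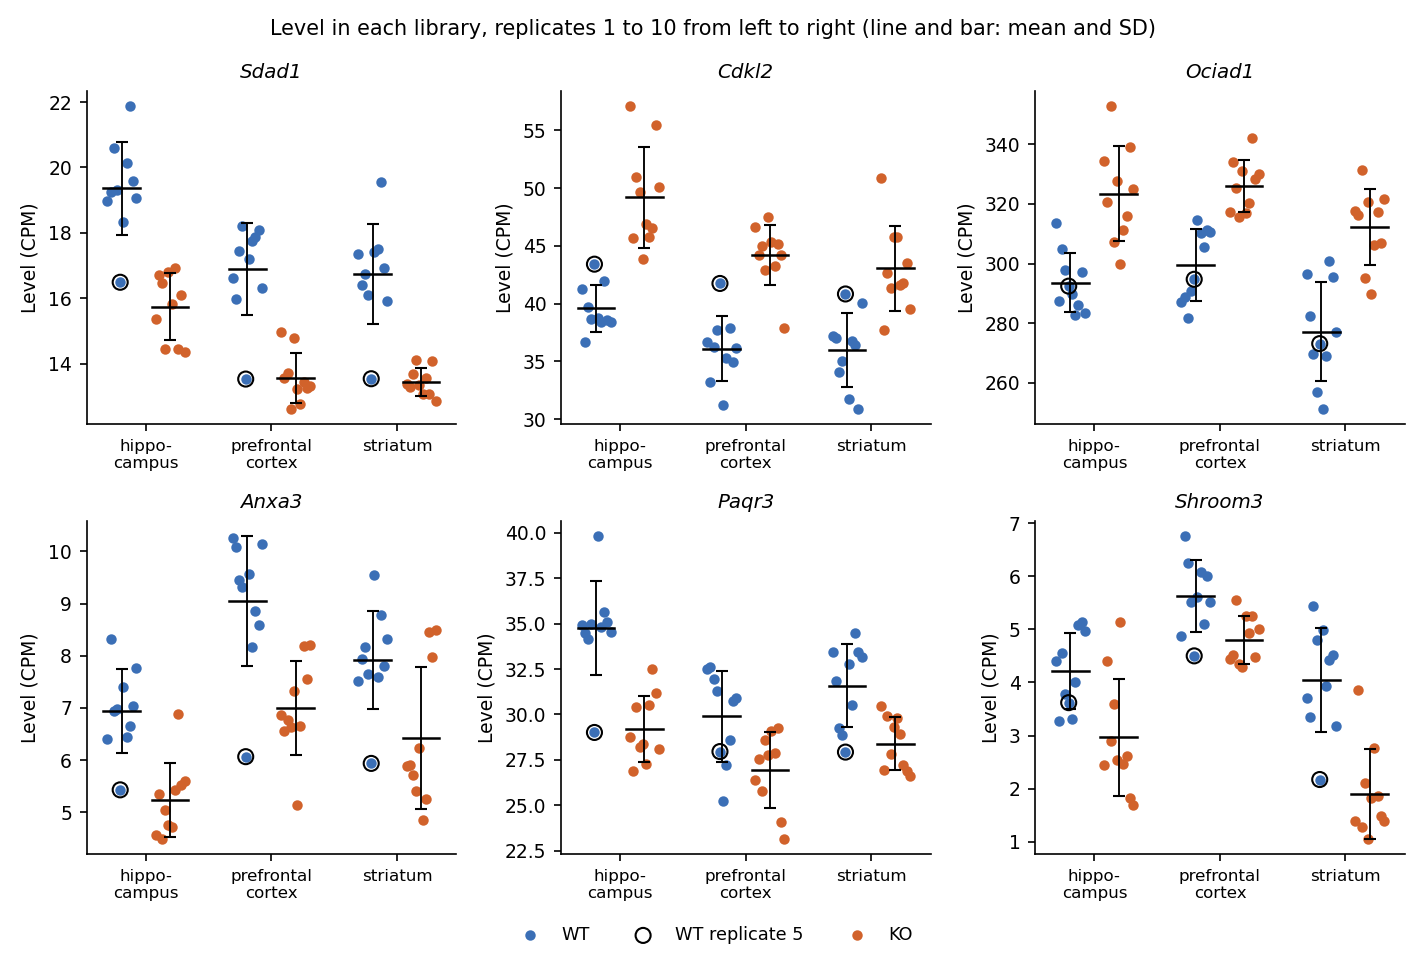
Level in CPM of 6 members in each library by region and genotype, with replicates 1 to 10 from left to right, and the mean and SD of each group of 10. WT replicate 5, ringed, lies among the KO libraries of Sdad1 and Anxa3 in every region and among the other WT libraries of Ociad1.

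Of 13 genes of the cytoskeleton, adhesion and extracellular matrix, 0 rose in any comparison, while 2 fell in hippocampus, 1 in prefrontal cortex, 1 in striatum and 2 in the sums. The list's median difference was -0.10, -0.10, 0.00 and -0.04. Adamts3 encodes a protease that acts on procollagen and on a lymphatic growth factor (chr5:89677087-89883334, minus strand). It ran from 29.6 to 35.4 CPM (median 31.0) in WT hippocampus and from 23.7 to 29.0 (25.5) in KO. These do not overlap, and WT replicate 5 was at 30.4 CPM. In prefrontal cortex it ran from 23.9 to 28.0 (27.0) in WT and from 21.2 to 27.3 (25.3) in KO, and in striatum from 60.8 to 88.3 (65.2) and from 46.7 to 69.8 (57.8). Adamts3 fell by 0.27 in hippocampus (SE 0.04, edgeR adjusted p = 0.00314) and by 0.21 in the sums (SE 0.04, edgeR adjusted p = 0.0446, not passing in 17 of the 20 fits without 1 number). Its difference was -0.10 ± 0.04 in prefrontal cortex and -0.23 ± 0.07 in striatum, where it did not pass.

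Anxa3, which encodes a calcium-dependent membrane-binding annexin, lies at chr5:96793339-96845966, plus strand. It ran from 5.43 to 8.33 CPM (median 6.97) in WT hippocampus and from 4.48 to 6.88 (5.20) in KO, from 6.07 to 10.3 (9.39) and from 5.13 to 8.21 (6.83) in prefrontal cortex, and from 5.94 to 9.55 (7.87) and from 4.85 to 8.49 (5.90) in striatum. WT replicate 5 was the lowest WT library in each region, at 5.43, 6.07 and 5.94 CPM. KO replicates 8, 9 and 10 stood at the other end in striatum, at 8.46, 7.97 and 8.49 CPM, where the other KO libraries had at most 6.23. In prefrontal cortex KO replicates 8 and 10 were the highest KO libraries, and in hippocampus KO replicate 8 was. Anxa3 fell by 0.41 in hippocampus (SE 0.08, edgeR adjusted p = 0.0359, not passing in 14 of the 20 fits without 1 library). In prefrontal cortex the difference was -0.38 ± 0.09 (0.0845) and in striatum -0.30 ± 0.10 (0.576), and neither passed. Without WT replicate 5 it fell by 0.44 in hippocampus, and it passed in prefrontal cortex and in the sums as well. With DESeq2, with all 60 libraries fitted together and with voom, Anxa3 passed in prefrontal cortex and the sums too.

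Shroom3, an actin-binding gene of epithelia (chr5:92683435-92965318, plus strand), ran from 2.17 to 5.45 CPM (median 4.18) in WT striatum and from 1.05 to 3.86 (1.66) in KO. WT replicate 5 was the lowest WT library and KO replicate 2 the highest KO library. In hippocampus Shroom3 ran from 3.27 to 5.15 (4.21) in WT and from 1.69 to 5.14 (2.58) in KO, and in prefrontal cortex from 4.50 to 6.77 (5.56) and from 4.29 to 5.56 (4.72). It fell by 1.09 in striatum (SE 0.20, edgeR adjusted p = 0.0489, not passing in 17 of the 20 fits without 1 library, but passing without WT replicate 5 where it fell by 1.161). In the sums it fell by 0.52 (SE 0.09, edgeR adjusted p = 0.0114). The differences in hippocampus (-0.51 ± 0.17) and prefrontal cortex (-0.24 ± 0.07) did not pass.

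Fras1 encodes a basement membrane protein of embryonic epithelia (chr5:96373955-96784728, plus strand). It ran from 19.7 to 36.0 CPM (median 29.5) in WT prefrontal cortex and from 19.3 to 26.2 (22.3) in KO. The lowest WT library was replicate 5, at 19.7 CPM, and the other 9 had 26.6 CPM or more, above every KO library. Fras1 fell by 0.41 there (SE 0.08, edgeR adjusted p = 0.0411) and by 0.46 without WT replicate 5, and it did not pass in 15 of the 20 fits without 1 library. With the olfactory bulb score in the fit the difference was -0.50 ± 0.10 (edgeR adjusted p = 0.142). In hippocampus its difference was 0.17 ± 0.10 and in striatum 0.03 ± 0.06, and it did not pass. Igfbp7, the nearest of this list before Adgrl3, differed by -0.16 ± 0.08 in hippocampus, 0.17 ± 0.06 in prefrontal cortex and 0.00 ± 0.07 in striatum, and did not pass.

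Among enzymes and receptors of steroid, sugar and lipid handling, 2 of 2 tested members fell in hippocampus and in the sums, and 0 of 2 passed in prefrontal cortex and striatum (median differences -0.19 and -0.16; both members were at an unadjusted p under 0.05 in each). Srd5a3 encodes a reductase needed for the lipid carrier of protein glycosylation (chr5:76140271-76155504, plus strand). It ran from 14.5 to 17.0 CPM (median 15.7) in WT hippocampus and from 12.0 to 15.4 (13.6) in KO, with 8 KO libraries below every WT library. Srd5a3 fell by 0.22 there (SE 0.04, edgeR adjusted p = 0.0463, not passing in 15 of the 20 fits without 1 library) and by 0.20 in the sums (SE 0.03, edgeR adjusted p = 0.00493). Its differences of -0.22 ± 0.05 in prefrontal cortex and -0.16 ± 0.04 in striatum did not pass. In prefrontal cortex Srd5a3 did pass with DESeq2, with all 60 libraries fitted together and with the replicate number as a block. Paqr3 encodes a Golgi membrane protein that holds back Raf kinase signalling (chr5:97082329-97111596, minus strand). It ran from 29.0 to 39.8 CPM (median 34.9) in WT hippocampus and from 26.9 to 32.5 (28.6) in KO. WT replicate 5 was the lowest WT library at 29.0 CPM, and the other 9, from 34.1 CPM upward, lay above every KO library. Paqr3 fell by 0.25 in hippocampus (SE 0.04, edgeR adjusted p = 0.00932), by 0.28 without WT replicate 5, and by 0.19 in the sums (SE 0.03, edgeR adjusted p = 0.00238). It overlaps Bmp2k on the opposite strand by 9539 bases, and no source used here says how the count treated strand, so reads of the shared stretch cannot be told apart.

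Of the transcription and chromatin regulators, 1 of 4 tested passed in prefrontal cortex, 0 of 4 in hippocampus, 0 of 5 in striatum and 0 of 5 in the sums. Prdm8, a transcriptional repressor gene of neurons (chr5:98167198-98188991, plus strand), ran from 22.1 to 33.2 CPM (median 27.7) in WT prefrontal cortex and from 31.7 to 43.3 (34.6) in KO. Of the KO libraries 8 lay above every WT library. Prdm8 rose by 0.39 ± 0.06 (SE, edgeR adjusted p = 0.00681). With the olfactory bulb score in the fit the difference was 0.43 ± 0.09 and did not pass (edgeR adjusted p = 0.137), nor did Prdm8 pass with all 60 libraries fitted together. In hippocampus it differed by -0.10 ± 0.10 and in striatum by -0.18 ± 0.23, and it did not pass. Hopx, a homeodomain-only gene, differed by 0.18 ± 0.06, 0.08 ± 0.04 and 0.17 ± 0.09, and Rest, which encodes a repressor of neuronal genes, by -0.14 ± 0.08, -0.09 ± 0.08 and -0.04 ± 0.08. Neither passed.

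Of 5 genes of the cell cycle and of ubiquitin transfer, Ccng2 rose in the sums and 0 passed in any region (median differences 0.01, 0.03 and -0.12). Ccng2, an atypical cyclin gene (chr5:93267257-93276231, plus strand), ran from 40.6 to 45.9 CPM (median 42.4) in WT sums and from 45.1 to 51.8 (48.5) in KO sums, with 9 KO sums above every WT sum. It rose by 0.18 ± 0.03 (SE, edgeR adjusted p = 0.00244). Its differences were 0.27 ± 0.06 in hippocampus (edgeR adjusted p = 0.0681), 0.13 ± 0.03 in prefrontal cortex (0.106) and 0.14 ± 0.03 in striatum (0.292). With DESeq2 Ccng2 passed in each region. Ccni, an abundant cyclin gene, differed by 0.10 ± 0.03, 0.09 ± 0.04 and 0.09 ± 0.04 and did not pass.

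In the remaining lists 0 members passed in any region or in the sums. Of 7 genes of the secretory pathway all were tested, and Scfd2 and Uso1 had the smallest p in the sums, with differences of -0.06 ± 0.03 and 0.03 ± 0.02. Of 6 ion transport and neuropeptide receptor genes 5 were tested in the sums. Slc10a4 differed by 0.13 ± 0.06 and the bicarbonate transporter gene Slc4a4 by -0.05 ± 0.04. Of 4 EGF-family ligands 2 were tested in the sums, Epgn and Btc, with mean WT levels of at most 0.433 CPM. Of 10 CXC chemokines 3 were, with mean WT levels of at most 0.362 CPM. Pf4, the platelet factor 4 gene, ran from 0.379 to 0.773 CPM (median 0.633) in WT prefrontal cortex and from 0.146 to 0.542 (0.407) in KO. Its difference there was -0.67 ± 0.18 (edgeR adjusted p = 0.116), which did not pass. With DESeq2 Pf4 passed there. Of 4 albumin family genes 1 was tested in the sums, Afm. Of the list of 12 casein, saliva and enamel genes 1 was, Jchain, which encodes the joining chain of immunoglobulins and is no casein or enamel gene. The 13 glucuronosyltransferase and sulfotransferase genes were tested nowhere, with at most 0.361 CPM on average in any WT region. Among members in no list, Rasl11b, a small GTPase gene with the third highest level per kb of span, differed by 0.34 ± 0.07 in hippocampus (edgeR adjusted p = 0.0658), 0.17 ± 0.05 in prefrontal cortex and -0.16 ± 0.11 in striatum. Cenpc1 differed by -0.14 ± 0.04, -0.23 ± 0.05 and -0.10 ± 0.04. Polr2b differed by -0.02 ± 0.02, -0.08 ± 0.04 and -0.06 ± 0.02. These 3 passed in no region in the edgeR fits by region. Cenpc1 did pass in prefrontal cortex and in the sums with DESeq2, with all 60 libraries fitted together and with voom. In prefrontal cortex those settings called 222, 208 and 55 genes over the whole table, where 18 passed in the edgeR fit of that region. Rasl11b did pass in hippocampus with DESeq2.

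Whether a difference between the genotypes itself differed between the regions was tested over all 60 libraries. Of 95 members 0 passed (edgeR quasi-likelihood), against 0.0248% of all tested genes, and 14 (14.7%) were at an unadjusted p under 0.05, against 3.96% of all. DESeq2's likelihood ratio test called 2, Kit and Fras1. Kit had the smallest p of the members (edgeR adjusted p = 0.0568), then Fras1 (0.086) and Rasl11b (0.216). For Sdad1, Cdkl2 and Ociad1 the adjusted p was 1. A p that misses the threshold does not show that the regions were alike.

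By replicate number, each library's value was placed between the mean of its own genotype, itself left out, and that of the other genotype, in each of the 3 regions, for the 13 members that passed in at least 1 of the 4 comparisons. These members were chosen for their genotype difference, so the placing is a description. WT replicate 5 lay nearer to the KO mean in 19 of its 39 values, where the other WT replicates did so in 3 to 11 and KO replicates lay nearer to the WT mean in 5 to 11. Over the 14 combinations of member and region that passed, WT replicate 5 lay nearer to KO in 8, and the other WT replicates in 0 or 1. KO replicates 2 and 5 lay nearer to WT in 3 of these 14, replicates 6 and 8 in 2, and the other KO replicates in 0 or 1. Along the chromosome, WT replicate 5 lay nearer to KO in 0 of 3 regions for Ociad1, 1 for Srd5a3, 0 for Adamts3 and Mthfd2l, 2 for Cdkl2, in 3 for Sdad1, in 2 for Shroom3, in 1 for Ccng2, in 2 for Mrpl1 and Fras1, in 3 for Anxa3 and Paqr3, and in 0 for Prdm8. This was not particular to WT replicate 5 for every member. WT replicates 4 and 8 also lay nearer to KO in 2 regions for Mrpl1, as did WT replicates 7, 8 and 9 for Fras1 and WT replicate 6 for Ccng2. Among KO libraries, replicate 5 lay nearer to WT in all 3 regions for Adamts3, as did KO replicate 8 for Anxa3. For Adgrl3 itself WT replicate 5 stood with the other WT libraries.

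**Figure D3:**
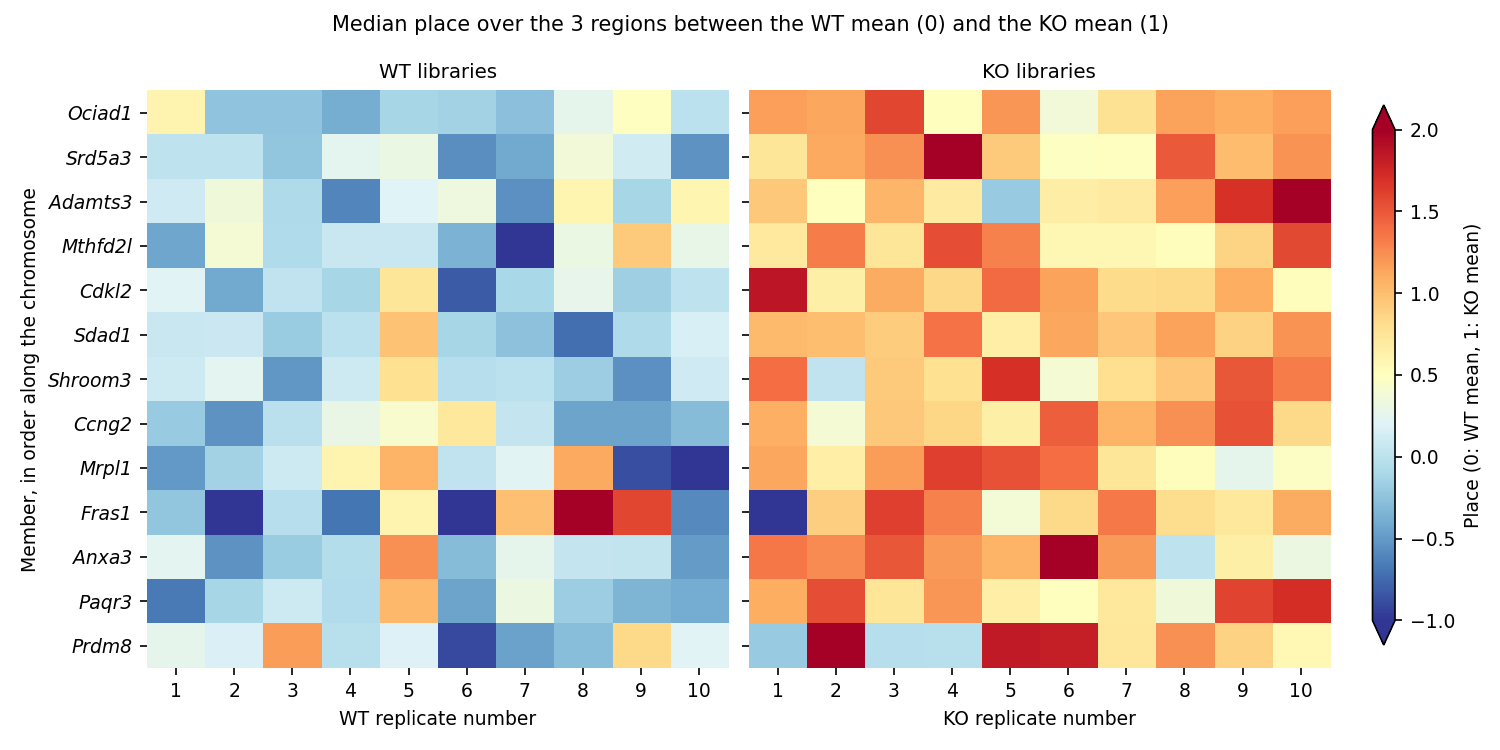
Place of each genotype and replicate number between the WT mean (0) and the KO mean (1) for the 13 members that passed, in order along the chromosome, as the median over the 3 regions. WT replicate 5 is at 0.97 for Sdad1, 1.23 for Anxa3 and 1.03 for Paqr3, and at -0.12 for Ociad1. Values swing widely where the genotype means lie close, as for Fras1 and Prdm8.

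Without WT replicate 5 the members whose KO and WT values did not overlap were 5 of 86 in hippocampus (Adamts3, Mthfd2l, Cdkl2, Sdad1 and Paqr3), 4 of 81 in prefrontal cortex (Ociad1, Cdkl2, Sdad1 and Fras1) and 1 of 88 in striatum (Sdad1), against 0.0899%, 0.0911% and 0.0643% of all tested genes. With it they were 3, 1 and 0, against 0.0321%, 0.026% and 0.0193% of all, and 3 in the sums, against 0.036%. Leaving out any library can only keep or raise these counts, and WT replicate 5 was picked out by its values in these members. The counts without it are thus a description. Members that passed without it numbered 6, 5, 3 and 10 in hippocampus, prefrontal cortex, striatum and the sums, of 21, 21, 15 and 32 genes of the whole table that passed. With it they were 8, 4, 2 and 10, of 20, 18, 8 and 27. Over the 20 sums, the members whose level went most closely with Sdad1 were Paqr3 (Pearson r = 0.88), Ccng2 (-0.832), Shroom3 (0.825), Cdkl2 (-0.811) and Mthfd2l (-0.788). These values include the difference between the genotypes and are given as a description over 20 sums that share the 2 groups.

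Across WT regions the members were compared with each other without the genotype (edgeR quasi-likelihood over 30 WT libraries, adjusted p under 0.05 and an absolute log2 difference of at least 1). Between striatum and hippocampus 19 of 90 members passed, against 10.2% of all tested genes, between striatum and prefrontal cortex 17 of 90, against 11.6%, and between hippocampus and prefrontal cortex 15 of 90, against 10.1%. Of the first 19, 11 were higher in striatum (5.12% of all) and 8 lower (5.06%). Of the 17, 11 were higher in striatum (7.07%) and 6 lower (4.54%), and of the 15, 7 were higher in hippocampus (5.98%) and 8 lower (4.16%). Higher in striatum were Slc10a4, with 12.0 to 16.4 CPM against 0.417 to 1.29 in hippocampus and 0.0835 to 1.18 in prefrontal cortex (log2 differences 4.37 ± 0.23 and 5.58 ± 0.26), and Adamts3 (1.10 ± 0.05 and 1.34 ± 0.05). Rasgef1b, a gene of Ras activation, was at a median of 15.5 CPM in hippocampus, 75.4 in prefrontal cortex and 101 in striatum (2.68 ± 0.09 for striatum against hippocampus). Lower in striatum were Prdm8, at medians of 60.8, 27.7 and 6.10 CPM in hippocampus, prefrontal cortex and striatum (-3.29 ± 0.15 and -2.03 ± 0.14), and Hopx, at 47.8, 31.4 and 10.97 CPM (-2.12 ± 0.08 and -1.46 ± 0.08). Kit was higher in hippocampus than in striatum (-1.12 ± 0.05 for striatum against hippocampus) and prefrontal cortex (1.22 ± 0.05 for hippocampus against prefrontal cortex). Bmp3, a growth factor gene of the bone morphogenetic protein family, and Sowahb were highest in prefrontal cortex, at medians of 47.7 and 33.5 CPM, against 10.6 and 5.19 CPM in hippocampus (-2.28 ± 0.13 and -2.62 ± 0.12 for hippocampus against prefrontal cortex). The WT ranges of Slc10a4, Prdm8 and Hopx in striatum did not overlap those of the other regions. Sdad1, Cdkl2 and Ociad1 passed in none of the 3 contrasts.

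**Figure D4:**
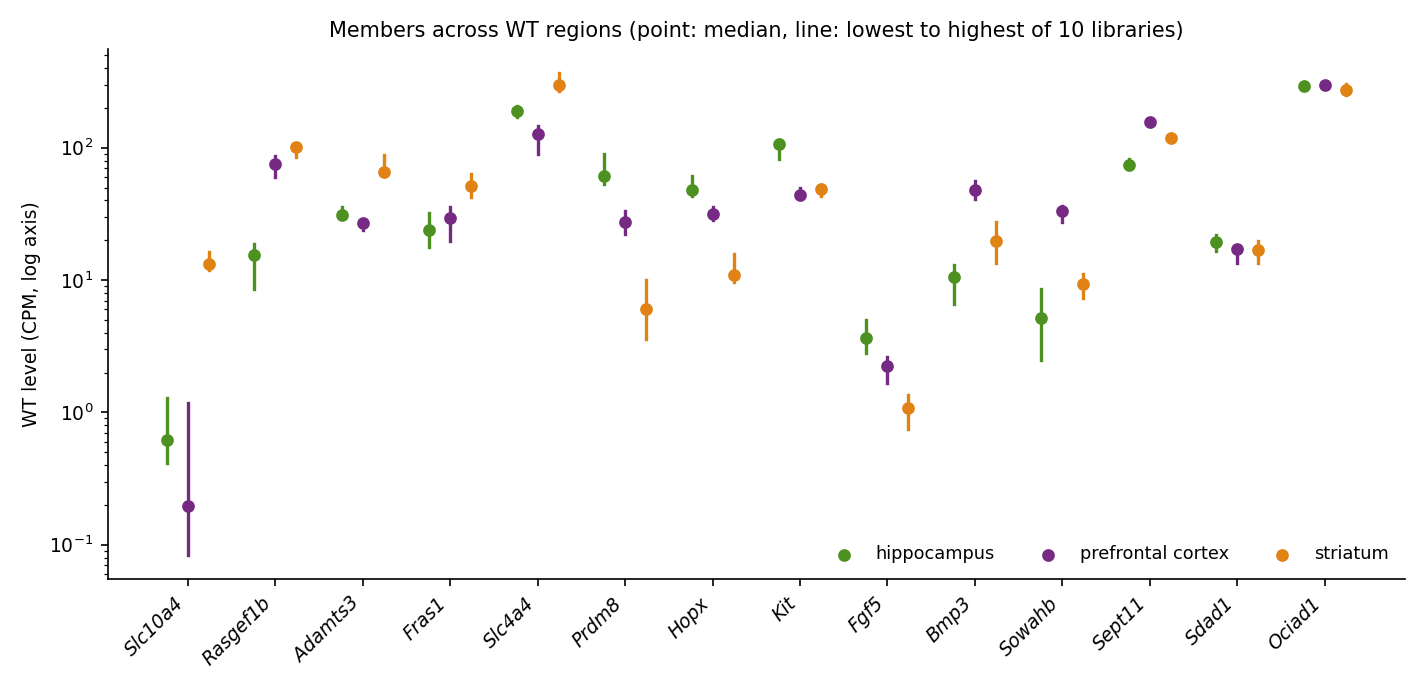
WT level in CPM (log axis) of 14 members in hippocampus, prefrontal cortex and striatum, with the median as a point and the lowest to highest of 10 libraries as a line. Slc10a4 is higher and Prdm8 and Hopx lower in striatum than in the other regions, while Sdad1 and Ociad1 lie close together in all 3.

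Most of the tested members with the highest level per kb of gene span in WT did not pass between the genotypes. Utp3, whose product takes part in making the small ribosomal subunit, was first with 14.5 CPM per kb, then Ociad1 with 13.6, Rasl11b with 10.7, G3bp2 with 10.6, Ccni with 8.43, Hnrnpd with 5.64, Grsf1 with 5.31, Paics with 4.90, Ccng2 with 4.80 and Sowahb with 3.98. Of these 10, Ociad1 passed in hippocampus and in the sums and Ccng2 in the sums, and the other 8 in neither. Utp3 ran from 20.4 to 27.0 CPM (median 24.8) in WT hippocampus and from 20.7 to 26.4 (23.1) in KO, which overlap widely. Since the count takes the whole gene from start to end, the level per kb rests on span and is low for genes with long introns.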

How the data were processed

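The deposited table holds the authors' raw counts of reads per gene for 21950 genes and 60 libraries, per the file headers, which give each gene as a span from start to end. Per the submitters' processing notes, the tools were STAR 2.5.2b, bedtools, cutadapt, FastQC and DESeq2 and the build GRCm38, with no role or order given. No source used here says how strand was treated.

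KO and WT were compared in each region (20 libraries) and on counts summed by genotype and replicate number (20 sums) with edgeR 4.0.16 (R 4.3.3): TMM, filterByExpr, quasi-likelihood F test, robust, Benjamini-Hochberg over all tested genes, 0.05. SE is the log2 difference divided by the square root of F. The fit was tested on simulated data. Likeness and places used log2(CPM + 0.5). Alternatives were DESeq2 1.42.0, RLE, other filters, limma 3.58.1 voom, the replicate number as a block, all 60 libraries, an olfactory bulb score (Cdhr1, Doc2g, Eomes and Tbx21, mean of log2 CPM), and leaving out each number.

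Equal numbers were taken as 1 mouse in the sums, which no label states: over genes of other chromosomes, libraries of 1 genotype and number in different regions had median correlations of deviations from 0.253 to 0.313, against -0.036 to -0.02 for other numbers. Between prefrontal cortex and each of the other regions the own number was the best match in 10 of 10, in WT and in KO. Between hippocampus and striatum single values fell to -0.187 (WT) and -0.133 (KO), and the own number was the best match in 7 and 6 of 10. Over the 95 tested members the medians across regions were 0.043 to 0.196 for equal numbers, against -0.025 to 0.009 for other numbers. There the own number was the best match in 1 to 4 of 10. It is thus not certain that every sum is 1 mouse. Pairs of replicate libraries differed beyond sampling noise (chi-square per degree of freedom 5.57 to 93.3 over 270 pairs).

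Members and lists were chosen with earlier results of these data known. Named were Adgrl3, Sdad1, Cdkl2, Ociad1, Kit, every member that passed, the nearest 2 tested members on each side of Adgrl3, 2 members of smallest p per list, and the 10 of highest level per kb of span. The members given for the WT region contrasts and their plot, among them Rasgef1b and Bmp3, were chosen after their values were seen. Of members, 136 of 192 matched a RefSeq promoter.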

Additional observations from a re-analysis of the deposited data

Results flagged for a closer look

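A library stood apart from the other 9 of its group, by the gap to its nearest neighbour over the range of the group, in 20 of 234 groups of the named genes (8.55%). For independent values with a normal spread, chance alone gives about 1 in 20 groups (5%). Groups here share libraries and some genes lie under 1 CPM, so 8.55% against 5% is a description and no test. Among members that passed, WT replicate 5 was the lowest of its group for Sdad1 in prefrontal cortex (13.5 CPM, others from 15.99 to 18.2), for Anxa3 in prefrontal cortex (6.07, others from 8.16 to 10.3) and for Paqr3 in hippocampus (29.0, others from 34.1 to 39.8). It was also the highest for Polr2b (81.1, others from 66.2 to 73.8) and for Slc10a4 (1.18, others from 0.0835 to 0.34) in prefrontal cortex. Anxa3 was high in KO replicate 8 of hippocampus (6.88, others from 4.48 to 5.59), Adamts3 in WT replicate 9 of striatum (88.3, others from 60.8 to 73.1) and Ccng2 in WT replicate 6 of prefrontal cortex (45.7, others from 38.5 to 41.8). KO replicate 10 of prefrontal cortex was low for Cdkl2 (37.9, others from 42.9 to 47.5) and Scfd2 (18.7, others from 21.1 to 22.7) and high for Igfbp7 (23.2, others from 16.3 to 19.9).

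Slc10a4 was also high in WT replicate 8 (1.29 CPM) and KO replicate 2 (1.78) of hippocampus and in KO replicate 3 of prefrontal cortex (0.462), where it is far below its striatal level. KO replicate 5 of striatum was high for Slc4a4 (354, others from 266 to 308) and Afm (1.95, others from 0.0217 to 0.753). At low levels, Afm stood apart in KO replicate 9 of hippocampus (0.242), Jchain in KO replicate 7 of hippocampus (0.96), Cxcl5 in WT replicate 10 of hippocampus (0.301) and Pf4 in KO replicate 2 of striatum (0.288).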

How the results depend on the processing

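No member that passed changed direction under any setting run. Of 223 single-gene values outside the fits that left out a library, 180 kept their side of the threshold, 31 lost and 12 gained the call. Of 480 with 1 genotype and number left out, 354 kept it and 126 lost it. Members that passed numbered 4 to 9 in hippocampus, 3 to 6 in prefrontal cortex, 1 to 3 in striatum and 8 to 11 in the sums when 1 number was left out (8, 4, 2 and 10 with all). Over all genes 12 to 26 then passed in hippocampus and 9 to 68 in prefrontal cortex (20 and 18 with all). DESeq2 gave 16 in prefrontal cortex, 7 in striatum, 16 in the sums, 2 for the interaction and 24 for hippocampus against prefrontal cortex in WT (15 with edgeR). Over all genes DESeq2 called 222, 28, 131, 17 and 2137, where edgeR called 18, 8, 27, 4 and 1605. All 60 libraries together gave 10 in prefrontal cortex, 5 in striatum and 20 in the sums, where unsummed libraries count as separate mice, and 208, 22 and 649 over all genes. Both settings raised the calls over all genes by a larger factor than those of members in prefrontal cortex and the sums. Voom gave 10 in prefrontal cortex, of 55 over all genes. RLE size factors gave 1 in striatum. Without a filter on low counts 5 passed in hippocampus, of 15 over all genes, and 1 in striatum. The olfactory bulb score left 1 in prefrontal cortex, Sdad1, of 4 over all genes, where 18 passed without the score. The score itself differed between the genotypes, so this fit cannot fully part it from genotype. The cause of these shifts was not tested. Some counts of members in striatum and the sums, here and with the block below, stand without a count over all genes. Whether such a change is particular to the members cannot be read from those counts.

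With the replicate number as a block, 1 member passed in hippocampus (Cdkl2), 2 in prefrontal cortex (Cdkl2 and Srd5a3), 0 in striatum (8, 4 and 2 without) and 6 in the sums, 0 in the interaction. Over all genes the block left 5 in hippocampus and 10 in prefrontal cortex (20 and 18 without). The labels do not say that equal numbers of KO and WT share anything. Over members, the correlation of deviations of equally numbered KO and WT libraries ran from -0.743 to 0.404 in the 3 regions, and the best match was the own number in 0, 1 and 1 of 10, so equal numbers of KO and WT were not taken as pairs. In WT region contrasts the block changed no count (19, 17 and 15).

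At the depth of these libraries 93 of 192 members could not be tested, and a difference in them was not detectable.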
